A study of Mus musculus with 9 samples.

Results

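Heart muscle takes up glucose, splits it through glycolysis and stores part of it as glycogen. The 34 genes described here encode the transporters, enzymes and switches of that route: 2 glucose transporters, 10 enzymes from hexokinase to aldolase, 8 from triose phosphate isomerase to pyruvate kinase, 4 genes of lactate exchange, 6 of the pyruvate dehydrogenase step and 4 of glycogen turnover. They were chosen by name, with earlier results of these data known. The arrays carried a probe for 33 of the 34, the exception being Pdk2, a pyruvate dehydrogenase kinase, to which no probe mapped. All 33 passed the filter on dim probes and stood among 27778 genes measured. On the probe used, 32 of the 33 were well above background on all 9 arrays, and Gys1 passed that mark in 1 of 4 RORasg/sg and 5 of 5 WT hearts.

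Total RNA was taken from the hearts of 4 RORasg/sg mice and 5 wild-type (WT) mice, with 1 Agilent single-colour array for each heart. All were males of the C57BL/6 strain by their labels, 3 to 4 months old, weaned at 3 weeks onto NIH31 chow and left untreated. RORasg/sg mice are homozygous for staggerer, a germline deletion within Rora, which encodes the nuclear receptor RORalpha. The deletion is carried by every tissue, so the heart was not the only organ without an intact Rora, and the labels do not say whether the WT mice were littermates.

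In the adult heart fatty acids are the main fuel and glucose is the flexible one. GLUT4 (Slc2a4) moves to the cell surface on insulin or contraction, whereas GLUT1 (Slc2a1) supplies basal uptake. Hexokinase traps glucose in the cell, phosphofructokinase sets the pace of glycolysis, and pyruvate is either exchanged with lactate or sent into mitochondria by the pyruvate dehydrogenase complex, which its kinases switch off. Glycogen synthase and branching enzyme build the glycogen store, and phosphorylases release glucose phosphate from it. RORalpha binds DNA mostly as a monomer, at an AGGTCA core preceded by an A/T-rich stretch.

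Because RORalpha is the factor lost, the RefSeq promoters of the members (build GRCm38.p6) were searched for AGGTCA on both strands in the 250 bases before each start. Of 33 members with a promoter entry, 7 held the core (21.2%), against 15.8% of all 27025 genes with an entry. By window the shares were 8 of 51 (15.7%) for members and 4607 of 32851 (14%) for all promoters. The members with a match were Pfkm, Pfkfb1, Aldoa, Eno1, Eno3, Pkm and Ldhb. Slc2a4 has no entry and Pdk2 was searched although the arrays did not measure it. Printed here are the windows of the 3 members with the lowest p in the array comparison, Pygm, Gys1 and Tpi1, none of which holds the core, and 2 that do, Eno3 and Ldhb. The strand of the gene is shown 5′ to 3′, in lower case, and capitals mark the core (Eno3, forward) or its reverse complement (Ldhb). A match describes the letters of the window and does not show that the receptor binds there.
Pygm, chr19:6384158-6384407, plus strand: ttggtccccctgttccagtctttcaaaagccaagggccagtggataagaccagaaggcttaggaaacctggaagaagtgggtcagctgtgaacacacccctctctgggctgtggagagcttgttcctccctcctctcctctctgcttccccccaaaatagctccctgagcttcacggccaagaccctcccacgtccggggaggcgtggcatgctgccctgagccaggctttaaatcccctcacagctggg
Gys1, chr7:45434589-45434838, plus strand: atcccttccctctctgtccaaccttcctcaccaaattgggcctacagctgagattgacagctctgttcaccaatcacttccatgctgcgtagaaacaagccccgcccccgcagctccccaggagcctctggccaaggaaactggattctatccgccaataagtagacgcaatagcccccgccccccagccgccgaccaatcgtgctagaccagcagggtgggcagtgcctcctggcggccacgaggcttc
Tpi1, chr6:124814159-124814408, minus strand: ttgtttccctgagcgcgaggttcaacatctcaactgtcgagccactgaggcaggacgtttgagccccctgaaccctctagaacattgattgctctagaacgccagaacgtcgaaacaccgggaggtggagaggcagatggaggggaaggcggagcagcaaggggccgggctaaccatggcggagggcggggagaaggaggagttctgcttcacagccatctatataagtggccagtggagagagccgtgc
Eno3, chr11:70656926-70657175, plus strand: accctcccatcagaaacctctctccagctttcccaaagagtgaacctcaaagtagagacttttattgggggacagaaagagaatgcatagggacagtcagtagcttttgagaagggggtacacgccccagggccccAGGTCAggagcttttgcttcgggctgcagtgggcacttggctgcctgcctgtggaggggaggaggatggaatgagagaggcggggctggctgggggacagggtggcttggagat
Ldhb, chr6:142507958-142508207, minus strand: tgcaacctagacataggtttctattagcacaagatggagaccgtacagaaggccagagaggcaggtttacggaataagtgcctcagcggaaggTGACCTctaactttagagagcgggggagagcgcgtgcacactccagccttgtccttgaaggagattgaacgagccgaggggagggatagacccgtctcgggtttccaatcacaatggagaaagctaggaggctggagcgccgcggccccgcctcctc

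Signals are given as log2 of the processed spot signal minus the 75th percentile of all non-control spots on the same array, so that 0 is the level of that percentile. Levels of different probes are not compared with each other, and a difference always means RORasg/sg minus WT for 1 probe. Rora itself was lower in RORasg/sg hearts on 2 of its 3 probes, at -2.71 to 0.083 in RORasg/sg against 1.51 to 3.29 in WT on probe A_51_P477779, and at -4.43 to 0.25 in RORasg/sg against 1.56 to 3.40 in WT on A_52_P652442. On the third, dim probe the groups overlapped. Where these probes lie relative to the deleted segment is not known here.

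The arrays fell apart in brightness, and this touches every value that follows. The 75th percentile was 773, 292, 391 and 264 intensity units in RORasg/sg hearts 1 to 4, against 684, 643, 631, 436 and 547 in WT hearts 1 to 5. RORasg/sg 1 and WT 1, 2, 3 and 5, all above 500, are called the brighter arrays, and RORasg/sg 2, 3 and 4 and WT 4 the dimmer ones. The correlation with brighter WT arrays across all genes had a median of 0.962, 0.861, 0.810 and 0.757 in RORasg/sg 1 to 4 and 0.895 in WT 4. Slide 1 held RORasg/sg 1 and 2 and WT 1 and 2, slide 2 held RORasg/sg 3 and 4 and WT 3 and 4, and slide 3 held WT 5. Of 10 cardiomyocyte markers, all 10 were well above background on all arrays. Their median deviation from the brighter WT mean was 0.00034, -0.14, -1.73 and -1.22 in RORasg/sg 1 to 4 and 0.16 in WT 4. The part of brightness and of these markers in the members' values was not tested.

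In the comparison of 4 RORasg/sg with 5 WT hearts, no member differed past the threshold. Limma, fitted over all 27778 genes, called 0 of 33 members at a Benjamini-Hochberg adjusted p under 0.05, where it called 1 gene in all (0.0036%), AI593442, named after its value was seen. The lowest adjusted p of a member was 0.385. At an unadjusted p under 0.05, 0 members were higher and 3 were lower (Tpi1, Pygm and Gys1), against 4.94% of all genes higher and 6.62% lower. Gys1 is in that count with readings near the array's floor in 3 of 4 RORasg/sg hearts, so 2 of the 3, Tpi1 and Pygm, rest on signals well above background in every heart. In 0 of 33 members did the RORasg/sg hearts lie wholly above or wholly below the WT hearts, against 1.12% of all genes above and 1.71% below. Both counts are near the shares of all genes.

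The mean was higher in RORasg/sg hearts for 20 members (60.6%) and lower for 13, where 66.6% of all genes were higher. The median difference was 0.32 against 0.41 for all genes, and members ranged from -3.54 to 1.60. The split moved with the setting. Without scaling between arrays 6 members were higher and 27 lower, with a median of -0.25 against -0.17 for all genes, and with quantile normalization 18 were higher and 15 lower, with a median of 0.041 against 0.30. With brightness as a covariate 10 were higher and 23 lower, with a median of -0.20 against 0.0099, and on the 5 brighter arrays 11 were higher and 22 lower. Members are read against the shift of all genes in the same fit. The spread among hearts was larger in RORasg/sg than in WT for 33 of 33 members, as it was for 86.1% of all genes. The median SD of a member was 0.93 among the 4 RORasg/sg hearts and 0.45 among the 5 WT hearts, against 1.07 and 0.51 over all genes.

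**Figure D1:**
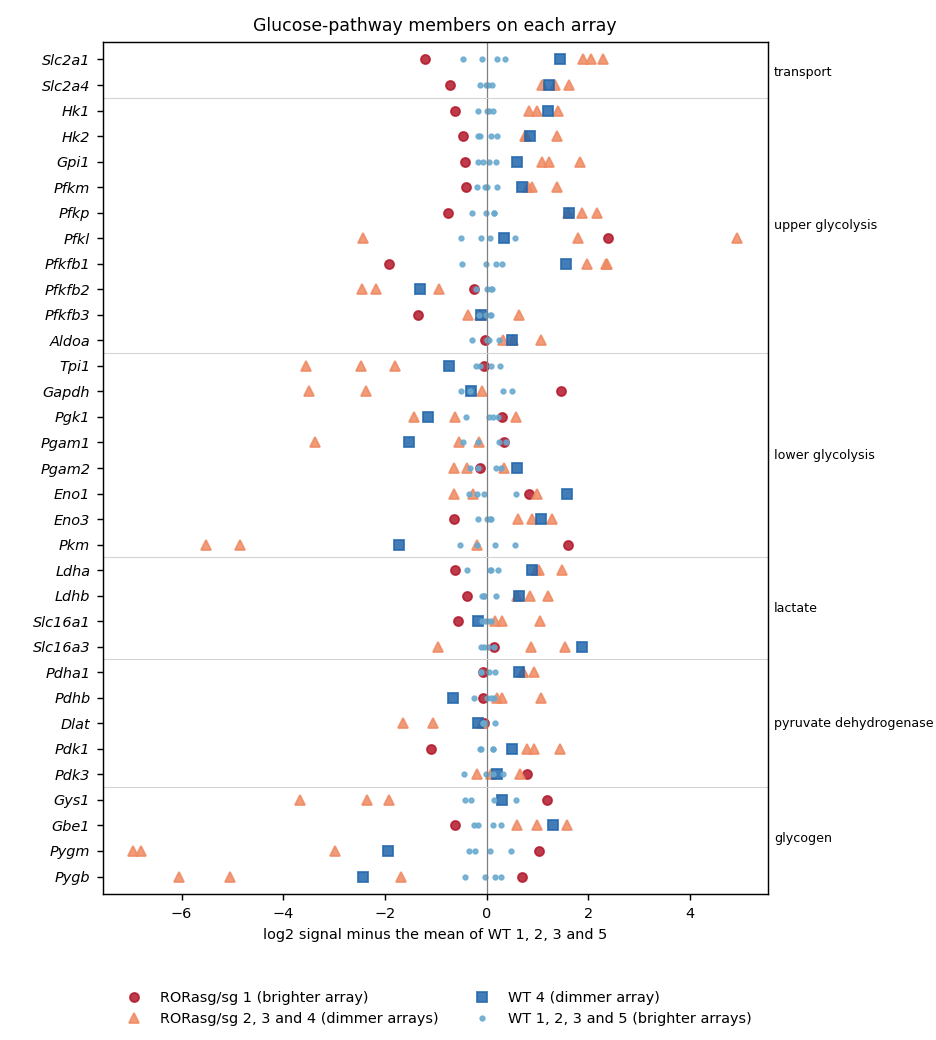
Log2 signal of each of the 33 measured members on each array, minus the mean of WT 1, 2, 3 and 5 (x axis, log2 units), with genes grouped by role on the y axis. RORasg/sg 1 (red circles) and RORasg/sg 2, 3 and 4 (orange triangles) often lie on different sides of the 4 brighter WT hearts (small blue points), and WT 4 (blue squares) often lies on the side of the orange triangles. Pygm, Pygb and Pkm reach furthest to the left.

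The position of single hearts was read against the range of the 4 brighter WT hearts, which serve as the common yardstick in each of these counts. In RORasg/sg 1, 16 members lay below that range, 7 within it and 10 above it, where all genes split 49.3%, 34.9% and 15.8%. RORasg/sg 2 had 8 below, 3 within and 22 above (all genes 25.4%, 18.8% and 55.8%). RORasg/sg 3 had 13 below, 1 within and 19 above (all genes 26.8%, 15.1% and 58.0%). RORasg/sg 4 had 11 below, 3 within and 19 above (all genes 28.0%, 13.4% and 58.6%). WT 4 had 10 members below, 5 within and 18 above (all genes 27.9%, 25.7% and 46.4%), so that this WT heart, too, left the range of the other WT hearts for most members. On each dimmer array most members and most genes lay outside the range.

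**Figure D2:**
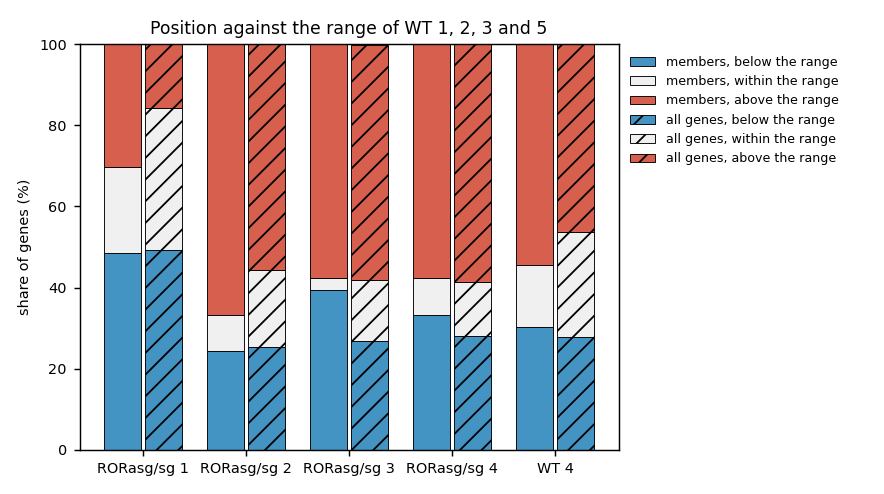
Share of genes (y axis, percent) below, within and above the range spanned by WT 1, 2, 3 and 5, for the 33 members (plain bars) and for all genes (hatched bars) in each of the other hearts. In RORasg/sg 1 the blue lower block is the tallest for both sets, and in RORasg/sg 2, 3 and 4 and in WT 4 the red upper block is the tallest.

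The transporters had higher means in RORasg/sg hearts with wide spread. Slc2a4, the insulin-regulated transporter of muscle, read 5.22, 7.56, 7.02 and 7.28 in RORasg/sg hearts 1 to 4, against 5.92, 5.97, 5.81, 7.16 and 6.03 in WT hearts 1 to 5. RORasg/sg 1 was the lowest heart of the 9, and WT 4 stood with RORasg/sg 2, 3 and 4. Slc2a1, the transporter of basal uptake, read 1.83, 5.34, 4.95 and 5.11 in RORasg/sg hearts, against 3.40, 3.24, 2.57, 4.50 and 2.96 in WT hearts. It had the same order, with RORasg/sg 1 lowest and WT 4 highest among WT. The differences were 0.59 (SE 0.46, limma adjusted p = 0.463) for Slc2a4 and 0.97 (SE 0.69, adjusted p = 0.440) for Slc2a1, and both stayed above 0 under each scaling tried but turned below 0 with brightness as a covariate (list median -0.30).

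From hexokinase to aldolase, 8 of 10 members had a higher mean in RORasg/sg hearts and 2 a lower one, where 66.6% of all genes were higher. The list median was 0.48 against 0.41 for all genes, and none passed. Without scaling the split was 4 higher and 6 lower, with a median of -0.089. With brightness as a covariate it was 3 higher and 7 lower (median -0.18). On the 5 brighter arrays it was 1 higher and 9 lower (median -0.44). Hk1 and Hk2, the hexokinases of heart, averaged 5.56 ± 0.88 and 5.60 ± 0.78 in RORasg/sg hearts and 5.15 ± 0.55 and 5.16 ± 0.41 in WT hearts (SD, n = 4 and n = 5). Gpi1, which turns glucose phosphate into fructose phosphate, averaged 6.46 ± 0.96 in RORasg/sg and 5.65 ± 0.30 in WT hearts. Its difference of 0.82 (SE 0.40, unadjusted p = 0.0655, limma adjusted p = 0.418) was the nearest to the threshold among the higher members. Aldoa, the muscle aldolase, averaged 8.52 ± 0.46 in RORasg/sg and 8.16 ± 0.30 in WT hearts, and its other probe gave 0.27 beside 0.37 on the probe used.

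The phosphofructokinase genes did not behave alike from heart to heart. Pfkm, the muscle subunit, read 5.38, 7.16, 6.59 and 6.66 in RORasg/sg hearts, against 5.59, 5.79, 5.74, 6.48 and 5.99 in WT hearts. Pfkp, the platelet-type subunit, spanned 1.87 to 4.79 in RORasg/sg and 2.33 to 4.24 in WT hearts. Pfkl, the liver-type subunit, read 0.82, 0.25, -3.99 and 3.38 in RORasg/sg hearts, against -2.06, -1.67, -1.0, -1.21 and -1.5 in WT hearts. For Pfkl the RORasg/sg hearts covered over 7 log2 units, with RORasg/sg 3 below and the other 3 above every WT heart, and its difference of 1.60 had an SE of 1.10.

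Pfkfb1, Pfkfb2 and Pfkfb3 encode bifunctional enzymes that make and break fructose 2,6-bisphosphate, the activator of phosphofructokinase. Pfkfb1, the form first known from liver and skeletal muscle, spanned 0.13 to 4.43 in RORasg/sg and 1.57 to 3.61 in WT hearts, a difference of 0.88 (SE 0.82). Pfkfb2, the heart form, read 1.67, 0.99, -0.54 and -0.25 in RORasg/sg hearts, against 2.03, 1.93, 2.01, 0.60 and 1.71 in WT hearts. Its RORasg/sg values were all below those of the brighter WT hearts and overlapped with WT 4, and the difference was -1.19 (SE 0.55, unadjusted p = 0.0530, limma adjusted p = 0.418). Pfkfb2's other probe that was well above background on all arrays gave 0.83 (SE 0.49). Pfkfb3, the inducible form, differed by -0.28 (SE 0.42). On A_52_P138126, another Pfkfb3 probe that cleared background on all arrays, the difference was -2.90 (SE 0.72, unadjusted p = 0.00167 in limma, a probe chosen after its value was seen). It read -0.45, -3.79, -2.47 and -3.31 in RORasg/sg hearts, against 1.04, 0.91, 0.57, -1.20 and 0.67 in WT hearts, and the groups overlapped through RORasg/sg 1 and WT 4.

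From triose phosphate isomerase to pyruvate kinase the split ran the other way, with 1 of 8 members higher and 7 lower in RORasg/sg hearts and a median difference of -0.48. The lower median held under each scaling (0 higher and 8 lower with quantile normalization and without scaling), but within slide 1 it turned to 0.38 (6 higher, 2 lower) while within slide 2 it was -1.14 (1 higher, 7 lower). It was -0.050 without RORasg/sg 4 and -0.021 with brightness as a covariate (4 higher and 4 lower in both), and 0.33 on the 5 brighter arrays (5 higher, 3 lower). Tpi1, which interconverts the triose phosphates, had the lowest p of all members. It read 5.88, 4.13, 3.45 and 2.37 in RORasg/sg hearts 1 to 4, against 5.71, 5.80, 6.00, 5.19 and 6.19 in WT hearts 1 to 5. RORasg/sg 1 lay within the WT values, and RORasg/sg 2, 3 and 4 lay below all 5 WT hearts. The difference was -1.82 (SE 0.57, unadjusted p = 0.00786, limma adjusted p = 0.385).

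Gapdh, the glyceraldehyde phosphate dehydrogenase often used as a reference transcript, was among the members that varied most. It read 6.93, 5.38, 3.09 and 1.96 in RORasg/sg hearts, against 4.96, 5.13, 5.97, 5.15 and 5.80 in WT hearts. RORasg/sg 1 was the highest of the 9 hearts and RORasg/sg 3 and 4 the lowest, and the difference was -1.06 (SE 0.81). Its second probe spanned 3.55 to 5.43 in RORasg/sg and 3.76 to 5.18 in WT hearts, with a difference of -0.22. Pgk1, the first ATP-yielding kinase of the route, read 4.93, 5.20, 4.01 and 3.20 in RORasg/sg hearts, against 4.22, 4.75, 4.68, 3.48 and 4.85 in WT hearts. The WT hearts lay inside the span of the RORasg/sg hearts, with a difference of -0.06 (SE 0.46), one of the smallest among members.

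Pgam1 and Pgam2, the ubiquitous and the muscle phosphoglycerate mutase, differed by -0.63 (SE 0.69) and -0.32 (SE 0.29). Eno1 and Eno3, the ubiquitous and the muscle enolase, differed by -0.09 (SE 0.54) and 0.32 (SE 0.39). Eno3 was the 1 member of this stretch with a higher mean, at 6.67 ± 0.83 in RORasg/sg and 6.36 ± 0.49 in WT hearts. Pkm, pyruvate kinase, read 3.63, 1.84, -2.83 and -3.50 in RORasg/sg hearts, against 1.5, 1.82, 2.57, 0.31 and 2.18 in WT hearts. RORasg/sg 1 was above every WT heart and RORasg/sg 3 and 4 were below every one, so that the difference of -1.89 carried an SE of 1.27 (limma adjusted p = 0.430). Probe sequences are not used here, so whether probes of Gapdh, Eno1, Pgk1 or Ldha, which have processed pseudogenes, also pick up related transcripts was not checked.

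Among the lactate genes all 4 means were higher in RORasg/sg hearts, with a median difference of 0.35, below the 0.41 of all genes, and all 4 were lower without scaling (median -0.22). All 4 were also lower with brightness as a covariate (median -0.16), and on the 5 brighter arrays 1 was higher and 3 lower (median -0.47). Ldha and Ldhb, the muscle and heart subunits of lactate dehydrogenase, averaged 6.85 ± 0.92 and 7.92 ± 0.68 in RORasg/sg hearts and 6.31 ± 0.46 and 7.49 ± 0.31 in WT hearts. Slc16a1 (MCT1), through which the heart takes up lactate, averaged 5.37 ± 0.65 in RORasg/sg and 5.10 ± 0.09 in WT hearts. Slc16a3 (MCT4), the exporter of glycolytic tissue, read -0.76, -1.86, 0.63 and -0.03 in RORasg/sg hearts, against -0.88, -0.96, -1.03, 0.96 and -0.77 in WT hearts. RORasg/sg 2 lay below every WT heart and WT 4 above every RORasg/sg heart, the rest overlapped, and the difference of 0.03 (SE 0.61) was the one nearest 0.

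At the pyruvate dehydrogenase step 4 of 5 measured members had a higher mean in RORasg/sg hearts, where 66.6% of all genes did. The median difference was 0.42 against 0.41 for all genes, and all 5 were lower without scaling (median -0.15). With the mean of all kept probes 1 was higher and 4 lower, with a median of -0.36 against 0.35 for all genes. The split was 3 higher and 2 lower with brightness as a covariate (median 0.076). It was 1 higher and 4 lower on the 5 brighter arrays (median -0.061). Pdha1 and Pdhb, the subunits of the first enzyme of the complex, differed by 0.45 (SE 0.32) and 0.51 (SE 0.34). Dlat, its acetyltransferase core, read 5.21, 5.18, 3.62 and 4.21 in RORasg/sg hearts, against 5.20, 5.20, 5.24, 5.10 and 5.43 in WT hearts. RORasg/sg 1 and 2 lay among the closely spaced WT hearts and RORasg/sg 3 and 4 below them all, for a difference of -0.68 (SE 0.37, limma adjusted p = 0.418). Dlat's other probe, also well above background on all arrays, gave 0.16. Pdk1 and Pdk3, kinases that inactivate the complex, differed by 0.42 (SE 0.45) and 0.30 (SE 0.40). Other probes well above background on all arrays gave -1.16 for Pdha1, -2.90 for Pdhb, -1.61 for Pdk1 and 0.96 for Pdk3.

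The glycogen genes held the largest differences of the 33 members on the probes used. Pygm, the muscle glycogen phosphorylase, read 3.57, -0.44, -4.27 and -4.41 in RORasg/sg hearts 1 to 4, against 2.20, 2.32, 3.03, 0.60 and 2.61 in WT hearts 1 to 5. RORasg/sg 1 was above all 5 WT hearts, RORasg/sg 2, 3 and 4 were below all 5, and WT 4 was the lowest WT heart. The difference was -3.54 (SE 1.37, unadjusted p = 0.0237, limma adjusted p = 0.418). Pygb, the brain-type phosphorylase that heart also makes, read 1.80, -0.58, -4.94 and -3.95 in RORasg/sg hearts, against 1.09, 0.69, 1.39, -1.33 and 1.27 in WT hearts. Again RORasg/sg 1 was the highest heart of the 9, and the difference was -2.54 (SE 1.18, unadjusted p = 0.0534). On Pygb's other probe, also well above background on all arrays, the difference was 0.44.

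Gys1, the muscle glycogen synthase, read -2.04, -5.57, -6.90 and -5.16 in RORasg/sg hearts, against -3.54, -3.66, -3.08, -2.93 and -2.65 in WT hearts. Only RORasg/sg 1, the highest of the 9, was well above background in its group, so the other 3 readings are bounds near the floor of the array. The fitted difference of -1.75 (limma adjusted p = 0.418) takes those readings at face value and is not a measured size, and it was 0.017 with another background correction (normexp). Gys1 passed the filter on dim probes through the WT hearts. Gbe1, the branching enzyme, differed by 0.37 (SE 0.48) and averaged 4.74 ± 0.93 in RORasg/sg and 4.37 ± 0.62 in WT hearts. Gys1, with its floor readings, is counted in the list of 4 and enters its median. Pygb, also in it, gave 0.44 on its other probe, whose mean over the arrays was almost that of the probe used. The list had a median of -2.14, with 1 higher and 3 lower, and of -1.40 with the mean of all kept probes. The split was 2 of each with quantile normalization (median -0.97) and 4 lower without scaling (median -2.71). It was 2 of each with normexp (median -0.70), 4 lower with brightness as a covariate (median -0.80), and 3 higher and 1 lower on the 5 brighter arrays (median 0.86). With quantile normalization Gys1 was -2.01 and Pygm -3.62, so the 2 higher there were Gbe1 and Pygb. A gene's probe was picked anew after each scaling, and which probe stood for Pygb there is not given. Without RORasg/sg 3 the median was -1.31, and without RORasg/sg 1 it was -3.24. Within slide 1 the median was -0.24 and within slide 2 it was -3.75.

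The count of 3 members at an unadjusted p under 0.05 moved with single hearts. Without RORasg/sg 1 it was 16 higher and 8 lower, where 38.4% of all genes were higher and 12.3% lower at that p. Without RORasg/sg 2 it was 0 higher and 5 lower (all genes 3.33% and 6.64%). Without RORasg/sg 4 it was 0 and 1 (all genes 1.97% and 4.44%). Without WT 4 it was 1 higher and 4 lower (all genes 7.98% and 8.8%). Without RORasg/sg 1, limma called 17 members at an adjusted p under 0.05, 10 higher and 7 lower, while 28.6% of all genes were called higher and 8.89% lower in that fit. The 10 were Slc2a1, Slc2a4, Hk2, Gpi1, Pfkm, Pfkp, Pfkfb1, Ldha, Ldhb and Pdk1, and the 7 were Pfkfb2, Tpi1, Gapdh, Pkm, Gys1, Pygm and Pygb. For Gys1 none of the 3 RORasg/sg hearts of that fit was well above background, so its call sets WT signals against floor readings. All 3 RORasg/sg hearts of that fit are on dimmer arrays and 4 of the 5 WT hearts on brighter ones, so genotype and brightness largely coincide there. The median of the members was 0.54 against 0.68 for all genes.

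The 5 brighter arrays hold RORasg/sg 1 as the lone heart of its group, which is assumed to vary like the WT hearts. There 6 members were called, 2 higher (Pfkl and Pkm) and 4 lower (Slc2a4, Pfkfb1, Pfkfb3 and Pdk1), against 1.29% of all genes higher and 2.99% lower, and the median was -0.13 against -0.34 for all genes. Both fits use WT 1, 2, 3 and 5. Slc2a4 differed by 1.11 (limma adjusted p = 0.0252) without RORasg/sg 1 and by -0.71 (adjusted p = 0.0399) on the brighter arrays. Pkm differed by -3.17 (adjusted p = 0.0490) and by 1.61 (adjusted p = 0.0425), in the same order of fits. Pygm differed by -5.19 (adjusted p = 0.00846) without RORasg/sg 1 and by 1.03 (adjusted p = 0.0812) on the brighter arrays, and Tpi1 by -2.46 (adjusted p = 0.00580) and by -0.05 (adjusted p = 0.902).

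**Figure D3:**
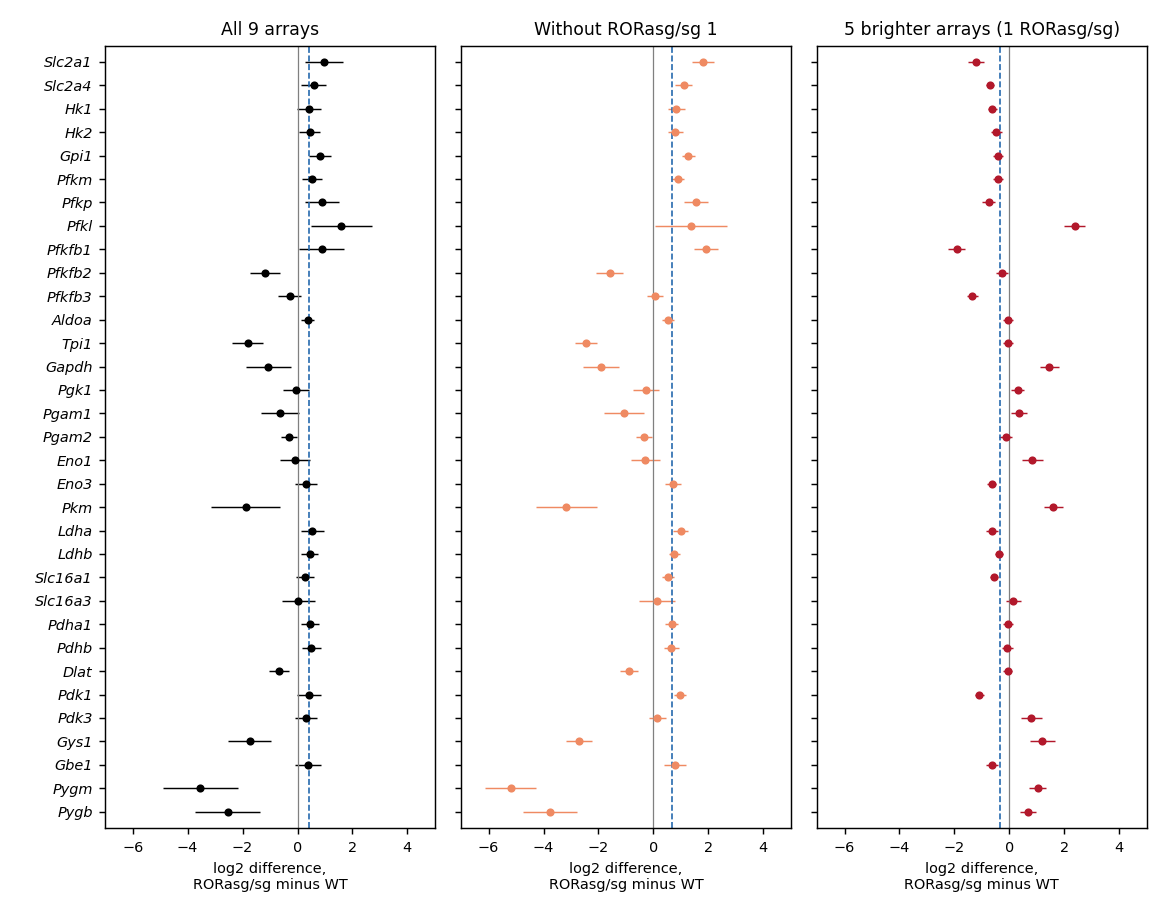
Log2 difference, RORasg/sg minus WT, of each member (x axis, limma estimate, bars show the SE) with all 9 arrays (left), without RORasg/sg 1 (middle) and on the 5 brighter arrays, with 1 RORasg/sg heart (right). Dashed blue lines mark the median of all genes, at 0.41, 0.68 and -0.34, and many members lie near that line in each panel, while Pygm, Pygb, Pkm, Gys1 and Tpi1 lie furthest below it in the left and middle panels.

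Probes of one gene often disagreed. Of 15 members with 2 or more probes well above background on all arrays, 10 (66.7%) had probes with differences of opposite sign, against 45.0% of 4512 such genes over the array. The median gap between a member's highest and lowest probe was 1.61, against 0.88 over those genes. The 2 probes of Ldha illustrate it, chosen after their values were seen. The probe used differed by 0.54, whereas A_51_P364146 read 4.06, 1.64, -3.39 and -1.58 in RORasg/sg hearts, against 1.77, 1.97, 2.83, 2.02 and 2.0 in WT hearts, a difference of -1.94. On that probe RORasg/sg 1 was the highest of the 9 hearts and the other 3 RORasg/sg hearts were below all WT hearts.

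For Pdhb the probe used differed by 0.51, whereas A_51_P321921 read 5.52, 1.73, 0.49 and 1.61 in RORasg/sg hearts, against 4.97, 5.23, 5.24, 5.42 and 5.33 in WT hearts, a difference of -2.90. Here WT 4 stayed with the other WT hearts, and RORasg/sg 2, 3 and 4 lay below all 5. Pdha1 had 0.45 and -1.16, Pdk1 0.42 and -1.61, Pfkp 0.90 and -0.35, and Pygb -2.54 and 0.44, the probe used first in each. The 5 Hk1 probes well above background on all arrays ran from -0.83 to 0.80, with 0.41 on the probe used. Pgk1 (-0.06 and -0.22) and Aldoa (0.37 and 0.27) had probes with like differences. With the mean of all kept probes in place of 1 probe, 16 members were higher and 17 lower, with a median of -0.086 against 0.35 for all genes.

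**Figure D4:**
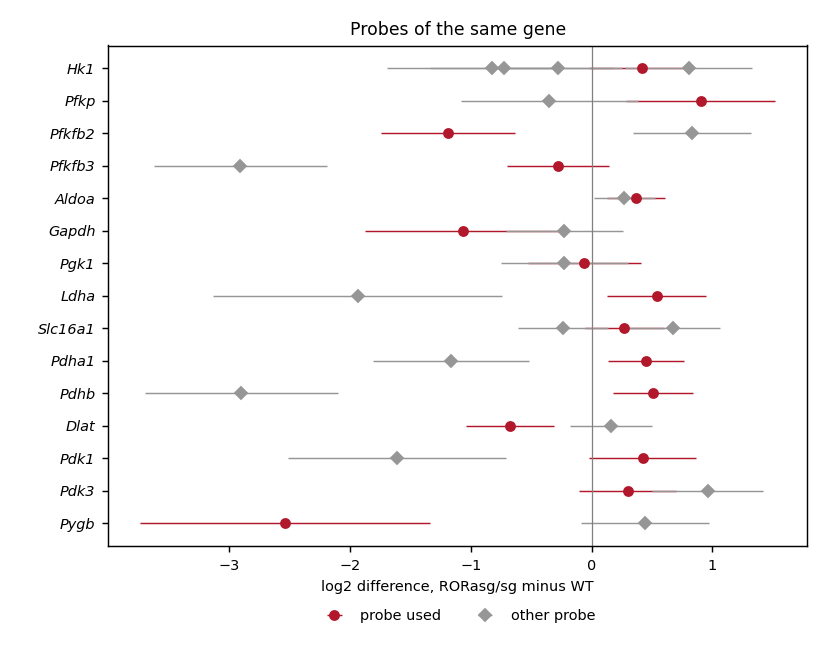
Log2 difference, RORasg/sg minus WT (x axis, bars show the SE), of every probe well above background on all 9 arrays, for the 15 members with 2 or more such probes. Red circles are the probes used and grey diamonds the others, and in 10 of the 15 genes the probes fall on both sides of 0.

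Paralogs were also compared within each array, which cancels the scaling between arrays. Only the change of such a difference between groups is read, in 9 pairs with exact two-sided permutation tests over hearts, adjusted over the 9 pairs, with 0.0159 as the smallest p that 4 against 5 hearts allow. The groups overlapped in all 9 pairs. The lowest p belonged to the phosphorylases, where Pygm minus Pygb was 1.78, 0.14, 0.67 and -0.47 in RORasg/sg hearts, against 1.12, 1.63, 1.63, 1.93 and 1.35 in WT hearts. RORasg/sg 2, 3 and 4 lay below the WT hearts and RORasg/sg 1 within them, and the change was -1.0 (exact permutation p = 0.0794, adjusted p = 0.714). The change was 0.02 for Hk2 minus Hk1, -0.10 for Ldhb minus Ldha, -0.38 for Slc2a4 minus Slc2a1 and -0.37 for Pfkm minus Pfkp. It was -1.07 for Pfkm minus Pfkl, 0.31 for Pgam2 minus Pgam1, 0.40 for Eno3 minus Eno1 and 0.24 for Slc16a1 minus Slc16a3. These 8 pairs had adjusted p-values of 0.776 to 0.873.

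**Figure D5:**
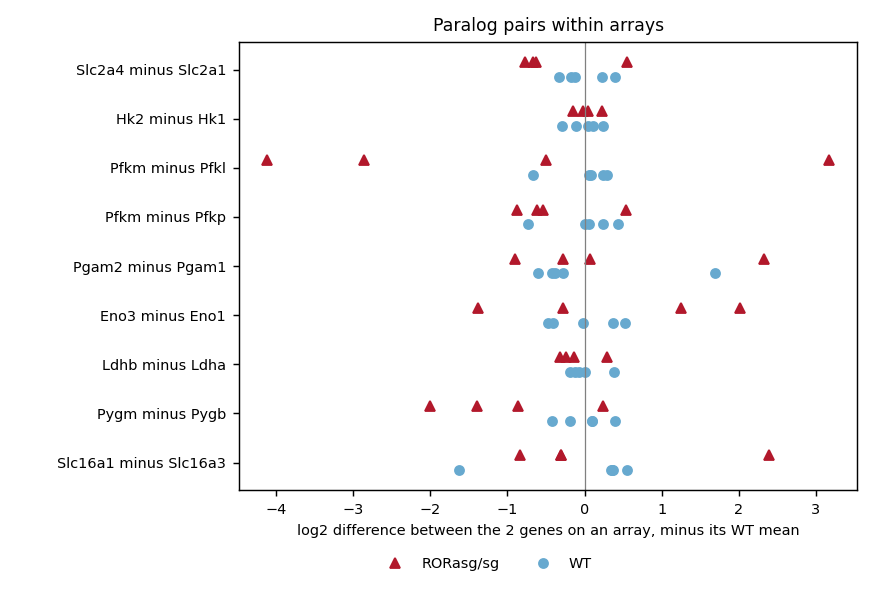
Within-array log2 difference between the members of each of 9 paralog pairs, minus its mean in WT hearts (x axis, log2 units), for 4 RORasg/sg hearts (red triangles, upper line of each pair) and 5 WT hearts (blue circles, lower line). The groups overlap in every pair, Hk2 minus Hk1 is the tightest, and Pfkm minus Pfkl spreads most among RORasg/sg hearts.

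Beyond the 33 members, 78 of 83 further genes of glucose handling were measured, with 35 higher and 43 lower in RORasg/sg hearts, a median difference of -0.14 against 0.41 for all genes, and 0 called by limma. At an unadjusted p under 0.05, 2 of the 78 were higher and 10 lower, against 4.94% and 6.62% of all genes. In 2 genes the RORasg/sg hearts lay above all WT hearts and in 2 below, which is 4 of 78 and stands beside the 1.12% and 1.71% of all genes. Both glycogen genes given here are among these 4. Ppp1r3c, a subunit that brings protein phosphatase 1 to glycogen, read 2.06, 1.66, 1.84 and 0.59 in RORasg/sg hearts, against 2.78, 2.78, 2.86, 2.90 and 3.16 in WT hearts, a difference of -1.35 (SE 0.41, limma adjusted p = 0.375), and its other probe gave -0.40. Stbd1, a protein that binds glycogen, read -2.29, -2.59, -2.35 and -3.38 in RORasg/sg hearts, against -4.14, -4.33, -3.65, -4.19 and -3.67 in WT hearts, a difference of 1.34 (SE 0.41, adjusted p = 0.378). In both genes RORasg/sg 1 stood on the same side of the WT hearts as RORasg/sg 2, 3 and 4. A lack of overlap requires this, so no contrast with Pygm, Pygb and Gys1, whose groups overlap, is drawn from it.

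Of the regulators, Akt1 differed by 1.49, Akt2 by -1.52 and Insr, the insulin receptor, by -2.91. That Insr probe cleared background in 3 of 4 RORasg/sg hearts, and the other one, which cleared it on all arrays, gave -0.08. Txnip, which restrains glucose uptake, differed by -2.89, and Slc2a8, an intracellular transporter, by -2.05. Pfkfb4, also above that mark in 3 of 4 RORasg/sg hearts, differed by -1.57. Other probes of Akt1 and Txnip gave 0.46 and -1.77. In the side routes, Gfpt1 and Uap1 of hexosamine synthesis differed by -2.30 and -1.91, and Pgd of the pentose phosphate path by -2.38. Other probes of Akt2 (2.20), Slc2a8 (0.48) and Pgd (0.92) gave the opposite sign. The other Gfpt1 probes gave 0.45 and, on 1 that cleared background in 2 of 4 RORasg/sg hearts, -2.63. None of these genes passed. RORasg/sg 1 lay within the WT range for each of them except Akt2 and Pfkfb4, where it lay above. On the 5 brighter arrays, with RORasg/sg 1 alone in its group, differences were -0.02 for Akt1, 0.28 for Akt2 and -0.33 for Insr. They were -0.20 for Txnip, 0.04 for Slc2a8, 0.18 for Pfkfb4, -0.37 for Gfpt1, 0.13 for Uap1 and -0.10 for Pgd.

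Marker lists were set beside these values, as summed signal in multiples of the array's 75th percentile. The 10 cardiomyocyte markers summed to 446 to 952 in RORasg/sg and 794 to 926 in WT hearts, with 446 and 456 in RORasg/sg 4 and 3. The 8 fibroblast markers summed to 90.9 to 225.5 in RORasg/sg and 62.3 to 104.6 in WT hearts, and the 7 endothelial ones to 25.2 to 66.1 in RORasg/sg and 23.7 to 41.2 in WT hearts. Sums follow the brightest probes. By gene, 9 of 10 cardiomyocyte markers had a lower mean in RORasg/sg hearts (median difference -0.79). Of the fibroblast markers, 5 of 8 (62.5%) had a higher mean (median 0.23), where 66.6% of all genes did (median 0.41). Lower means were seen for 5 of 7 endothelial markers (median -1.28), among them Pecam1 at -1.50, while Cdh5 (0.59) and Emcn (1.21) were higher. Median deviations of the endothelial markers from the brighter WT mean were 0.42, -1.12, -2.14 and -2.20 in RORasg/sg 1 to 4 and -0.89 in WT 4. Smooth muscle and pericyte (6 genes), macrophage (6), adipocyte (5), erythroid (4 of 5 measured) and skeletal muscle (6 of 7 measured) sums overlapped between the groups. In these lists Rgs5, Alas2 and Ckm cleared background in 3 of 4 RORasg/sg hearts. Cidec cleared it in 3 of 4 RORasg/sg and 3 of 5 WT hearts. In whole-heart RNA fewer cells of a type and less RNA per cell cannot be told apart, and the part of these markers in the members' values was not tested.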

How the data were processed

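RNA of 4 RORasg/sg and 5 WT hearts was amplified from 70 ng (NuGEN Ovation Pico WTA) and labelled with Cy3, per the labels' protocols. Images were read with Feature Extraction 12.0.0.7 (design 014868, grid build mm9), per the file headers, and the submitters' processing notes name version 12. The deposited intensity is background-subtracted and not scaled between arrays, and the deposited table of values holds the same numbers (largest relative difference 0).

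Control spots (leaving 43379 of 45018) and 758 flagged spots were left out, with 0 saturated, and a probe's spots were averaged. Log2 of the deposited signal had each array's 75th percentile subtracted. A probe was kept if well above background on 4 or more of the 9 arrays (36408 of 41174). RefSeq accessions (GRCm38.p6) named 28223 probes, and the kept probe with the highest mean stood for a gene. The groups were set against each other in limma 3.58.1 (lmFit, then eBayes with a trend; R 4.3.3, data.table in version 1.17.8), adjusting over all genes by Benjamini-Hochberg at 0.05, and the fit was tested on simulated data. The simulated arrays had independent noise, the same spread in both groups and no difference in brightness. That test therefore does not cover these features of the real arrays. Figures used matplotlib 3.10.9 in Python 3.11.15.

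Each heart is from its own mouse, and 9 arrays limit the precision. The members, lists, pairs, brightness division and alternatives were chosen with earlier results of these data known. Values on every array were set to be printed for members without overlap or at an unadjusted p under 0.05 and for the 2 nearest 0. From each list of other pathway genes, at most 4 at that p or without overlap are named, and some are not reported here. Values on each array of further members were picked after being seen. The alternatives were other scalings, normexp (offset 50), other rules for dim probes and for probes of a gene, blocks for slide or replicate number, single slides, brightness as a covariate, the brighter arrays alone, the deposited table of values and leaving out each heart.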

Additional observations from a re-analysis of the deposited data

Results flagged for a closer look

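Within each group of 4 or 5 hearts, the gap of the highest or lowest heart to its neighbour was set against the group's range (Dixon's test). Of 106 groups, 20 (18.9%) had such a heart, and it was WT 4 in 14 and RORasg/sg 1 in 3 of them. For a single group, chance gives about 1 in 20. The groups share the same arrays, the paralog pairs reuse members, and other pathway genes were picked from these data. The 18.9% therefore cannot be read against that rate, and no share over all genes is given. Over all genes, WT 4 lay below the range of the brighter WT hearts in 27.9% and above it in 46.4%. Why these hearts stood apart was not tested.

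In RORasg/sg hearts, RORasg/sg 1 stood apart for Slc2a1 (1.83, nearest heart 4.95), for Pfkfb1 (0.13, nearest 4.02) and for the within-array difference Slc2a4 minus Slc2a1 (3.39, nearest 2.22). RORasg/sg 2 stood apart for Slc16a1 minus Slc16a3 (8.03, nearest 5.33).

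In WT hearts, WT 4 was the high one for Slc2a4 (7.16, nearest 6.03), Hk1 (6.12, nearest 5.03), Pfkp (4.24, nearest 2.77), Eno3 (7.21, nearest 6.22), Slc16a3 (0.96, nearest -0.77) and Akt1 (3.12, nearest 2.21). It was the low one for Pfkfb2 (0.60, nearest 1.71), Pygb (-1.33, nearest 0.69), Akt2 (1.33, nearest 2.55), Insr (-1.24, nearest 1.80), Pgd (-0.60, nearest 0.52) and Uap1 (-0.46, nearest 1.12). Of the paralog pairs, WT 4 was high for Pgam2 minus Pgam1 (3.34, nearest 1.37) and low for Slc16a1 minus Slc16a3 (4.01, nearest 5.97). The other WT hearts that stood apart were WT 2 for Pfkfb4 (-1.32, nearest -0.98) and WT 3 for Pfkm minus Pfkl (6.74, nearest 7.47).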

How the results depend on the processing

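The count of 0 members called was kept under every alternative except the 5 brighter arrays (6) and leaving out RORasg/sg 1 (17), and ran from 0 to 17 when single hearts were left out. Over all genes limma called 1 gene, 2 with quantile normalization, 3 without scaling, 1189 on the 5 brighter arrays, and 0 with normexp, with the stricter filter (well above background on all 9 arrays), with the mean of all kept probes, with slide as a block and within slide 1 or slide 2. Leaving out single hearts gave 0 to 10402, the highest without RORasg/sg 1. Members at an unadjusted p under 0.05 numbered 3, where all genes had 4.94% higher and 6.62% lower. They were 7 with quantile normalization (all genes 6.76% and 7.8%) and without scaling (1.13% and 11.2%), 5 with the mean of probes (5.1% and 7.19%), 1 within slide 1 (0.317% and 1.14%), 8 within slide 2 (12.5% and 7.4%), 1 with brightness as a covariate (1.4% and 2.88%), 21 on the brighter arrays (6.38% and 17.5%) and 1 to 24 without single hearts. The members' median of 0.32 was 0.041 with quantile normalization, -0.25 without scaling, -0.086 with the mean of probes, -0.20 with the covariate, -0.13 on the brighter arrays and 0.16 to 0.54 without single hearts.

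The replicate numbers are not shown to pair the hearts: same-numbered arrays had correlations of their deviations from the group means of 0.046, -0.007, -0.331 and 0.392. With replicate number as a block, which leaves out WT 5, 9 genes and 0 members were called, Slc16a3 turned to -0.027 and Pgk1 to 0.055, and no paralog pair passed.

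Signs turned for these single values. Slc16a3 was -0.025 with each array's median, -0.54 without scaling, -0.027 with slide as a block, -0.39 within slide 1 and -0.22 with the covariate. Pgk1 was 0.055 with slide as a block, 0.58 within slide 1, 0.35 with the covariate and 0.30 on the brighter arrays. Gys1 was 0.017 with normexp. With the mean of probes Akt2 was 0.34, Pfkm minus Pfkp 0.25 and Ldhb minus Ldha 1.14. Within slide 1 Slc2a4 minus Slc2a1 was 0.18, Pgam2 minus Pgam1 -0.063 and Ldhb minus Ldha 0.12, and within slide 2 Slc16a1 minus Slc16a3 was -0.037. On the brighter arrays Gys1 was 1.19, Pygm 1.03, Akt1 -0.024, Akt2 0.28, Slc2a8 0.038, Pfkfb4 0.18, Uap1 0.13, Slc2a4 minus Slc2a1 0.50, Pfkm minus Pfkp 0.35, Pgam2 minus Pgam1 -0.48, Eno3 minus Eno1 -1.49, Ldhb minus Ldha 0.24, Pygm minus Pygb 0.35 and Slc16a1 minus Slc16a3 -0.70.

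Without single hearts the range crossed 0 for Slc16a3 (-0.35 to 0.48), Pgk1 (-0.35 to 0.32), Hk2 minus Hk1 (-0.049 to 0.084), Pgam2 minus Pgam1 (-0.37 to 0.73), Eno3 minus Eno1 (-0.14 to 1.0) and Slc16a1 minus Slc16a3 (-0.48 to 0.60). The cause of these changes was not tested. Signal over background limits Gys1, which cleared it in 1 of 4 RORasg/sg hearts.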
